A study of Drosophila melanogaster with 2 samples.

Results

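The regions described here are Mnt-eGFP binding sites that lie away from gene starts and carry the E-box CACGTG, the 6-base site of the Myc, Mnt and Max family. They were chosen from the reproducible ("optimal") peaks, of which 2084 were distal and 5367 lay near a start. The summit of a chosen peak, which is its base of strongest enrichment, lay more than 500 bp from every annotated transcription start site (TSS). A whole CACGTG also lay within 100 bp of that summit. Of the 2084 distal peaks, 224 met both conditions and 1860 had no such E-box. Another 420 peaks had the E-box and a summit within 500 bp of a TSS, and they are called promoter E-box peaks below.

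The chromatin came from whole adult female Drosophila melanogaster of unknown age, from a transgenic line with stable expression of Mnt fused at its C-terminus to GFP. It was sheared by sonication to fragments of 200 to 800 bp and immunoprecipitated with an antibody against GFP, and the DNA was sequenced (ChIP-seq). The 2 samples are biological replicates of this single group, with no other genotype or treatment to compare. The labels describe the construct only as an insertion targeting Mnt; the labels give neither its promoter nor its site, nor the state of the native Mnt gene. Because the animals were used whole, strong binding in few cells and weak binding in many cannot be told apart.

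Mnt is a basic helix-loop-helix leucine zipper repressor. It pairs with Max and competes with Myc, which also pairs with Max, for E-boxes at genes of growth and metabolism. CACGTG is its own reverse complement, so it reads the same on both strands, and the bases beside it vary from site to site.

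The E-boxes of the strongest members show how such sites look. Each sequence below is the dm6 (Release 6) plus strand read 5′ to 3′ with 10 bases to each side of the E-box, which is in capitals. The 16 members of highest signal are given in order, each under the name of the protein-coding gene it was assigned to. That gene is the one whose body holds the summit or, where none does, the one with the nearest TSS. An assigned gene is a position and not a shown target.
crp chr2L:16269652-16269677: cggcctctccCACGTGctctctctct
Kr-h1 chr2L:6079142-6079167: gtttgcgatgCACGTGttggcggtca
Kr-h1 chr2L:6088448-6088473: acttgaactaCACGTGgagggcgtgc
su(sable) chrX:637167-637192: gctctatatgCACGTGtgtgagacgc
Glut4EF chr3R:9950235-9950260: ggtgcaacggCACGTGttcgcacacc
Tudor-SN chr3L:262845-262870: aaataaaatgCACGTGtggggtcact
Eip74EF chr3L:17612432-17612457: ctcggagcggCACGTGtttacagttg
Raf chrX:2303871-2303896: tttacggttaCACGTGcgccgagttg
Mnt chrX:3673990-3674015: gggctggccaCACGTGttgctaagga
dsx chr3R:7947463-7947488: aaattgctgaCACGTGccgattgccg
x16 chr2L:6919235-6919260: gccacccgagCACGTGtgcgtgctgt
skd chr3L:21008943-21008968: atttttttagCACGTGtggtttgtgc
InR chr3R:21613462-21613487: gaaatgcaacCACGTGtgatgtttat
CG16989 chrX:796415-796440: gaaatatgacCACGTGcaaaacagtc
prage chrX:1850191-1850216: aactctaaagCACGTGgttctgttga
srl chr3R:4428731-4428756: ttgccccaacCACGTGtatgtgtatg

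The whole window, 100 bp to each side of the summit, is shown for the 3 members of highest signal, to place the E-box among the other short motifs searched. Capitals mark CACGTG. They also mark the E-box variant CATGTG and the variant CACGCG, which reads CGCGTG on the plus strand. The last capitals mark GAGAGA, which is bound by the GAGA factor and reads TCTCTC on the other strand. The crp window holds CACGTG next to an unbroken run of TC repeats. The windows at Kr-h1 hold CACGTG with CATGTG and GAGAGA in the first, and with CACGCG in the second.
crp chr2L:16269528-16269728: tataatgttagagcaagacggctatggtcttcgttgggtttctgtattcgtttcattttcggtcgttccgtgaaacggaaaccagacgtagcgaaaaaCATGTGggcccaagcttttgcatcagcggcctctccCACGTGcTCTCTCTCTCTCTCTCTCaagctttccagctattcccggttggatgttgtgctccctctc
Kr-h1, first peak, chr2L:6078996-6079196: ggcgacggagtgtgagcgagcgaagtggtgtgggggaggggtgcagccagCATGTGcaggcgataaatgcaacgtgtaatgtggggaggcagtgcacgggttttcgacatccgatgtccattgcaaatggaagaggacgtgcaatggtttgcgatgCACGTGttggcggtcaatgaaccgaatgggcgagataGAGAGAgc
Kr-h1, second peak, chr2L:6088417-6088617: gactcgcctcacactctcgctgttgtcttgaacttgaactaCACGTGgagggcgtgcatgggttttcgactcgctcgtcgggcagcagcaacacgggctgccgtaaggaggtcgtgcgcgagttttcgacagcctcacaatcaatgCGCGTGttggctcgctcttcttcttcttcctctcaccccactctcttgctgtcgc

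The strongest distal E-box peak lay in the second intron of crp (cropped), which encodes a basic helix-loop-helix zipper protein of the AP-4 type. The peak spanned 16269394 to 16270000 of chromosome 2L, 18102 bp downstream of the nearest crp TSS, and its pooled signal was 1238. Its signal was 839 in replicate 1 and 407 in replicate 2, where it was region 42 and region 25 by strength. It stood high in both replicates. The next members lay at Kr-h1, a zinc-finger factor of the juvenile hormone response. One lay 3507 bp upstream of its TSS, in an exon of the non-coding gene lncRNA:CR9162, with signals of 670 and 465 in replicates 1 and 2. The other lay in the first intron of Kr-h1, 2895 bp upstream of the nearest Kr-h1 TSS, with signals of 580 and 379. These members were the only 3 of the 224 among the 100 strongest optimal peaks (1.34%). The same share was 1.34% of all optimal peaks and 0.591% of distal peaks without the E-box.

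Of the 25 strongest members, several others were at genes of hormone and growth signalling. Eip74EF, an ETS-domain factor induced by ecdysone, had a peak in its first intron with a pooled signal of 663, and signals of 514 in replicate 1 and 158 in replicate 2. The peak in ftz-f1, a nuclear receptor of the same cascade, had a pooled signal of 424, with 267 and 150 in the replicates. For InR, the insulin receptor, the pooled signal was 529 with 329 and 205 in the replicates. Raf, a kinase of the MAP kinase pathway, reached 657 with 400 and 260, and its E-box middle lay 3.5 bp from the summit. At each of these 4 genes replicate 1 gave the higher signal, as it did at 6874 of the 7272 optimal peaks listed in both replicates. The gene srl, the fly relative of the PGC-1 coactivators, had a pooled signal of 498. The strongest replicate regions that overlapped this peak had signals of 436 and 272. Another optimal summit lay 320 bp away, so these replicate values may belong to that summit.

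Others lay at regulators of transcription and RNA. These were su(sable), an RNA-binding nuclear protein (733), Glut4EF, a transcription factor (678), Tudor-SN, a nuclease of the RNA-induced silencing complex (663), and dsx, the sex-determination factor (554). At x16, an SR splicing protein, the signal was 551, and at skd, a Mediator subunit, 538. The e(y)3 gene, a chromatin remodelling subunit, had 366. Each pooled signal in parentheses came from a summit inside an intron of the named gene. The Glut4EF summit was the member farthest from any TSS, at 21285 bp. The same stretch of Glut4EF is also covered by the gene CG46467, so the host there is ambiguous.

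The remaining genes of the 25 strongest members were CG16989 (516), prage (500), atos (485), tara (433), beat-Ib (431), Ptpmeg2 (373), Prps (364) and Alp13 (363), with 2 members at Mnt (599 and 493). Ptpmeg2 encodes a tyrosine phosphatase, Prps a phosphoribosyl pyrophosphate synthetase and beat-Ib a member of the beaten path family of axon guidance proteins. The CG16989 summit was in a 3′ UTR. The atos summit, on chromosome 2R, was in the first intron 2755 bp from the TSS, with signals of 318 and 165 in replicates 1 and 2. The beat-Ib summit was 48940 bp into that gene but 937 bp from the start of the non-coding gene lncRNA:CR44868. The Alp13 summit lay 12123 bp upstream of Alp13 within the non-coding gene lncRNA:CR45054.

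Most distal E-box summits lay inside genes. Of the 224, 173 (77.2%, 95% exact Clopper-Pearson interval 71.2 to 82.6) were in introns and 30 (13.4%) were intergenic. There were 7 in 3′ UTRs, 6 in exons of non-coding genes, 4 in coding exons and 4 in 5′ UTRs. Distal peaks without the E-box were intronic to 76.7%, a difference of 0.512 percentage points with a 95% Newcombe interval from -5.70 to 5.89. These intervals cover the counting of peaks only; neighbouring peaks are not independent and peaks are not replicates of a condition. The body of a protein-coding gene held 189 of the summits (84.4%), and 115 of the 172 that could be assigned to an intron of that gene were in its first intron (66.9%). The median length of these introns was 6671 bp. An intron's number was the lowest it had in any transcript of the gene. Intron number and length were not set beside those of other distal peaks. The median distance to the nearest TSS of any gene was 1988 bp (95% order-statistic interval 1649 to 2331), against 1642 bp (1567 to 1739) for distal peaks without the E-box. No summit of the 224 lay in an annotated transposable element, which allows a share of up to 1.63% (exact upper bound).

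The median signal of distal E-box peaks was above that of other distal peaks in the pooled data and below that of promoter E-box peaks. Their median signal was 146 (95% order-statistic interval 126 to 162; range 77.3 to 1238). It was 120 (117 to 123) for distal peaks without the E-box and 308 (261 to 347) for promoter E-box peaks. A signal at or above the median of all optimal peaks was found at 51.8% of the distal E-box peaks and 37.9% of the other distal peaks, a difference of 13.9 points (6.99 to 20.7). In replicate 1 the medians were 89.6 (81.9 to 101) with the E-box and 87.0 (84.7 to 89.9) without, and the intervals overlapped. In replicate 2 they were 56.0 (50.2 to 64.5) and 47.3 (45.6 to 48.8), and the intervals did not overlap. The pooled difference in medians, a ratio of 1.22, was 1.03 with the replicate 1 signal at the same peaks. By distance, the order was the other way from 2001 to 5000 bp from a TSS, with medians of 116 (96.7 to 161) with the E-box and 122 (114 to 130) without, and of the 4 distance bins only that from 1001 to 2000 bp had separate intervals (161, 127 to 181, against 117, 111 to 125). In 3′ UTRs the 7 members had a median of 92.9 and the 59 other distal peaks of 129. With the peaks of replicate 1 alone (without replicate 2) the ratio was 1.14 and the intervals overlapped.

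Members were about as often found in both replicates together as all optimal peaks and other distal peaks were, but less often than promoter E-box peaks. A region was listed for 222 of the 224 in both replicates' full lists (99.1%), which also hold weak background. The same share was 97.6% of all optimal peaks and 98.4% of distal peaks without the E-box. The exceptions were a Mnt peak with no region in replicate 2 and a GATAe peak with none in replicate 1. Among each replicate's strongest regions, as many as there are optimal peaks, were 168 of the 224 members (75%, interval 68.8 to 80.5). The same share was 77.4% of all optimal peaks, 72.2% of distal peaks without the E-box and 93.6% of promoter E-box peaks. The members' share was close to that of all peaks and 18.6 points below that of promoter E-box peaks (interval of the difference -24.9 to -12.7). The single replicates differed. Among the strongest regions of replicate 1 were 85.7% of members (80.4 to 90.0), 93.2% of all optimal peaks and 88.9% of distal peaks without the E-box. For replicate 2 these shares were 88.8% (84.0 to 92.6), 83.9% and 82.8%. Signals were higher in replicate 1 at 194 of the 222, with a median ratio of replicate 1 over replicate 2 of 1.70. The same held at 6874 of the 7272 optimal peaks listed in both, with a median ratio of 2.18. For distal peaks without the E-box it held at 1696 of 1831, with a median ratio of 1.93. Across these 222 regions the replicate signals had a Spearman correlation of 0.684 and, on log2 values, a Pearson correlation of 0.737. The regions share both libraries and were selected on pooled signal. The optimal list was also thresholded for reproducibility, so presence in both replicates and these correlations are not independent support. With those strongest regions of each replicate treated as peaks in their own right, the rule found 199 regions in replicate 1 and 247 in replicate 2, or 223 ± 33.9 (SD, n = 2).

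**Figure D1:**
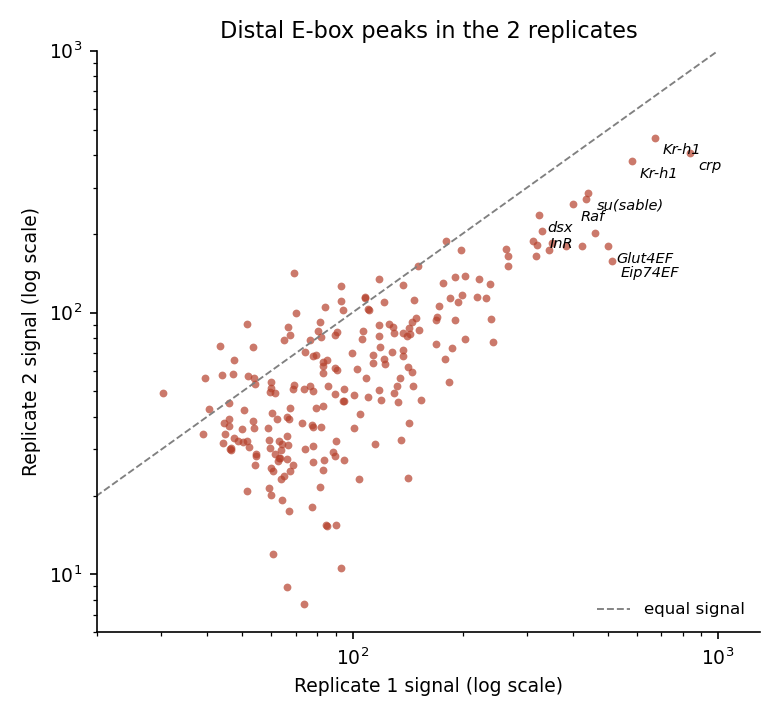
Each point is 1 of the 222 distal E-box peaks listed in both replicates, with the replicate 1 signal on the horizontal and the replicate 2 signal on the vertical log axis; the dashed line marks equal signals. The points run together along the diagonal and 194 lie below it, and crp and the Kr-h1 peaks stand at the upper end in both replicates.

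Within the window, the E-box lay close to the summit. The rule fixed that an E-box lay within 100 bp, not where in the window it lay. Its middle was within 25 bp of the summit at 92 members (41.1%, 34.6 to 47.8), while those positions make up 25.5% of the places that an E-box can take in the window. It was within 10 bp at 44 members (19.6%) and within 50 bp at 147 (65.6%), and the median distance was 33.5 bp. Promoter E-box peaks had 33.6% within 25 bp, and the difference of 7.50 points had an interval from -0.280 to 15.4, which includes 0. Around all 2084 distal summits, E-box density was 22.6 per 1000 summits per 25 bp within 25 bp of the summit. It was 13.4 from 25 to 50 bp, 9.96 from 50 to 100 bp, 4.44 from 100 to 200 bp and 3.74 from 500 to 1000 bp. The last value serves as the local background. Around promoter summits it was 13.1 within 25 bp and 3.67 from 500 to 1000 bp. Members with the E-box within 25 bp had a median signal of 136 (110 to 162) and those with it over 50 bp away 156 (124 to 182), with overlapping intervals.

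**Figure D2:**
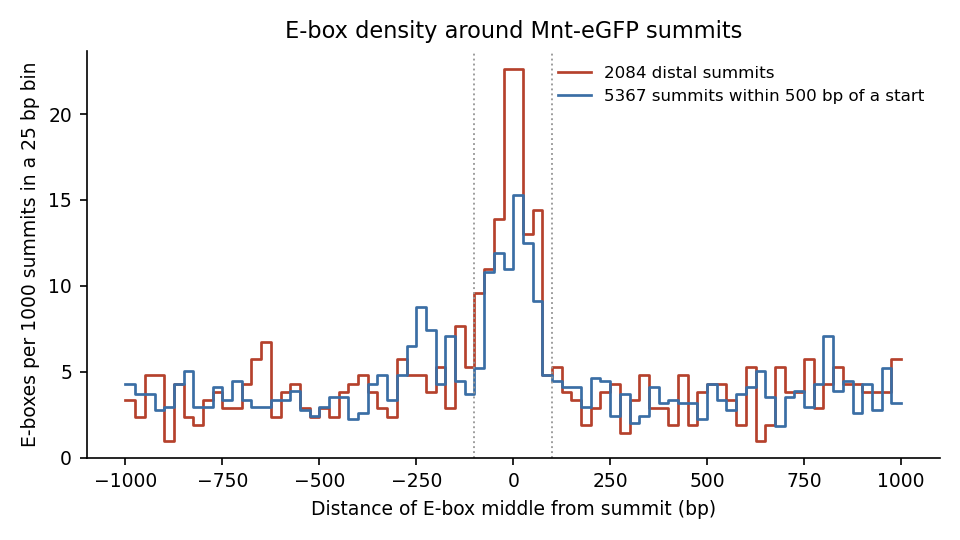
E-boxes per 1000 summits in 25 bp bins (vertical axis) against distance of the E-box middle from the summit in bp (horizontal axis), for 2084 distal summits and 5367 summits within 500 bp of a TSS; dotted lines mark the 100 bp limits of the rule. The distal line reaches 22.6 in the bins beside the summit and returns to about its background of 3.74 outside the limits.

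At the limits of the rule, the members nearest to 500 bp from a TSS were assigned to CG13868 (525 bp, signal 122), hebe (526 bp, 156) and Atet (531 bp, 217). The E-box peaks just short of that distance were at mura (493 bp, 166), RhoGEF3 (486 bp, 101) and bc10 (467 bp, 94.7). With the E-box farthest from the summit yet inside the window were CG5151 and Wwox (middle at 96.5 bp, signals 304 and 84.5) and RhoGAP18B (95.5 bp, 98.5). Just outside it were Marf (99.5 bp, 520), sky (101.5 bp, 132) and PRAS40 (102.5 bp, 83.8). Marf, the mitofusin gene, would rank among the strong members if the E-box had lain slightly closer. At 8 members (3.57%) the window held at least 2 CACGTG; they were assigned to atos, mnb, Mnt, Sfp79B, CG46385, NFAT, ckn and RpS7, names that were chosen after the values were seen.

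The share of distal peaks with the E-box was larger among stronger peaks, in both classes of peak but over different ranges. Among the 50 strongest distal peaks it was 24.0% (13.1 to 38.2), and among those of distal rank 1001 to 2084 it was 8.86% (7.23 to 10.7). The bins in between stood at 18.0%, 15.0%, 13.7% and 10.2% in order of falling signal, with overlapping intervals between neighbours. Among promoter peaks the share fell from 61.0% (50.7 to 70.6) in the strongest 100 to 4.51% (3.91 to 5.17) beyond rank 1000. In all, 10.7% of distal and 7.83% of promoter peaks had the E-box. Of the 50 strongest distal peaks, 12 were members and the others had no CACGTG wholly within 100 bp of the summit.

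**Figure D3:**
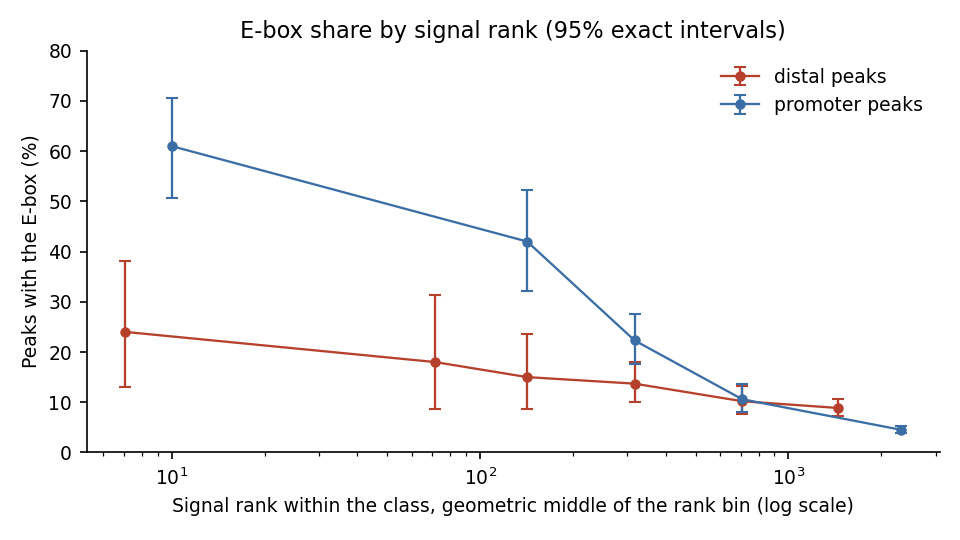
Percentage of peaks with the E-box within 100 bp of the summit (vertical axis) by signal rank within the distal or the promoter class (horizontal log axis, geometric middle of each rank bin), with 95% exact intervals. The promoter line falls from 61.0% to 4.51% and the distal line from 24.0% to 8.86%.

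The bases next to the E-box differed between copies near a distal summit and distal copies with no summit within 100 bp. Counting a site and its reverse complement as 1, there are 10 octamers that hold CACGTG with 1 base on each side. ACACGTGC, also read as GCACGTGT, was at 63 members (28.1%, 22.3 to 34.5), though it made up 16.8% of all distal E-boxes in the genome. In the list of sequences above it is the form at su(sable), Glut4EF, Tudor-SN, Eip74EF, Raf, dsx, x16, skd and the first Kr-h1 peak. Members with it had a median signal of 168 (134 to 214), and those with CCACGTGC, the form at crp, CG16989 and prage, of 135 (96.7 to 180). Reading outward from the hexamer, the first base was A at 13.4% of the members' flanks and at 20.8% of the flanks of distal E-boxes with no summit nearby. It was C at 35.9% against 30.6% and T at 31.9% against 25.8%. Promoter E-box peaks, at separate sites, had 11.3% A, 37.0% C and 34.6% T.

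Set against every copy in the genome, occupied distal E-boxes were rare. Of 13936 CACGTG sites more than 500 bp from any TSS, 232 had an optimal summit within 100 bp (1.66%, 1.46 to 1.89). Within 500 bp of a TSS, 430 of 2492 sites did (17.3%, 15.8 to 18.8). Among distal sites the octamer ACACGTGC was occupied at 2.69%, against 1.46% for all other distal sites, a difference of 1.23 points (0.602 to 1.99). Near a TSS the same octamer was occupied at 27.8% against 14.5% (difference 13.3 points, 9.27 to 17.6). CCACGTGG was at the low end, with 0.579% among distal sites and 10.3% near a TSS. Octamers that put a T just before CACGTG on either strand were then pooled, a grouping made after their values were seen. They were occupied at 1.15% of distal sites against 1.97% for the rest (difference -0.817 points, -1.22 to -0.392). Near a TSS the shares were 10.2% and 20.9% (difference -10.7 points, -13.5 to -7.81).

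Occupancy of distal sites also varied with place. It was 3.74% (2.90 to 4.73) from 501 to 1000 bp from a TSS, 2.13% from 1001 to 2000 bp, 1.77% from 2001 to 5000 bp, 1.26% from 5001 to 10000 bp and 0.421% (0.230 to 0.706) beyond that. Introns stood at 2.93% (2.52 to 3.39), intergenic sequence at 0.792% (0.546 to 1.11) and coding exons at 0.164% (0.0532 to 0.382, 5 of 3054 sites). The intervals of these 3 did not overlap. A copy in an intron was therefore more often occupied than one in a coding exon. Peaks without the E-box were placed in much the same way. Of distal peaks without it, 76.7% had their summit in an intron and 1.67% in a coding exon, against 77.2% and 1.79% of members. What this general placement of peaks adds to the occupied shares was not tested. Distance from a TSS and annotation move together here, and the part of each was not tested. On the X the share was 2.30% (1.73 to 2.99) and on the other large arms 1.37% to 1.68%, with overlapping intervals.

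**Figure D4:**
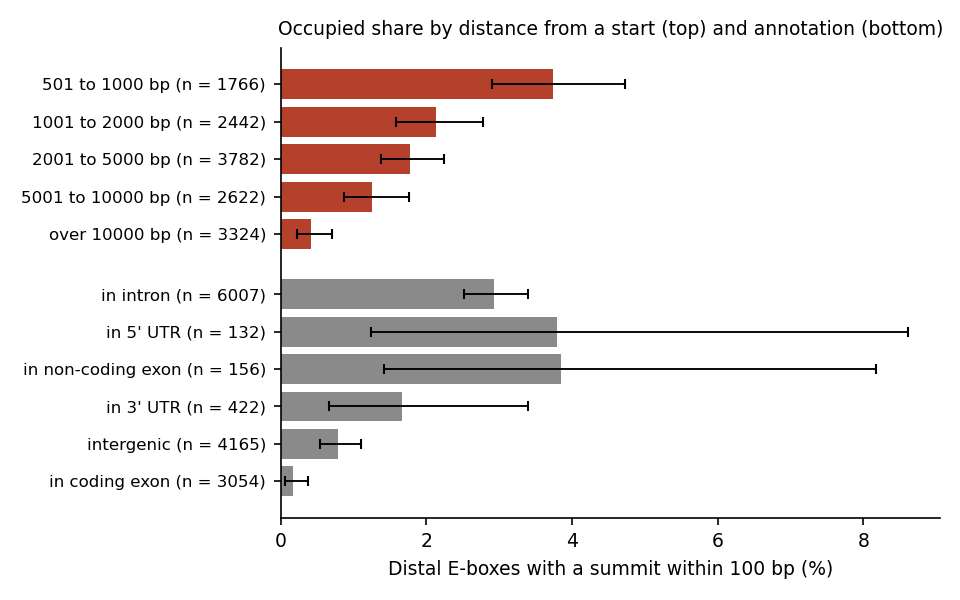
Bars give the percentage of distal genomic E-boxes with an optimal summit within 100 bp (horizontal axis), by distance from the nearest TSS in the upper group and by annotation in the lower group, with 95% exact intervals and the number of sites. Occupancy falls from 3.74% at 501 to 1000 bp to 0.421% beyond 10000 bp, and coding exons stand lowest at 0.164%.

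Core-promoter motifs were rare in distal windows, with or without the E-box. TATCGATA (the DRE, bound by Dref) or GGTCACAC (Motif 1), each searched on both strands, was in 2 of the 224 windows (0.893%, 0.108 to 3.19). Distal peaks without the E-box had it in 1.02% of windows, a difference of -0.129 points (-0.990 to 2.20). It was in 67 of 420 promoter E-box windows, a difference of -15.1 points (-18.9 to -11.1), and in 11.1% of all optimal windows. GAGAGA was in 48 members (21.4%, 16.2 to 27.4). That was above the 9.60% in windows 1000 bp to either side of the same summits, by 11.8 points (6.07 to 18.1), but its difference from distal peaks without the E-box (18.6%) had an interval from -2.38 to 8.90. Members with GAGAGA had a median signal of 194 (148 to 222) and those without it 135 (117 to 149); the crp and first Kr-h1 windows shown above are among the former. GATAAG was in 17.0% of the members, 22.0% of distal peaks without the E-box and 9.60% of the windows to either side.

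The E-box variant CATGTG was in 17.4% of members and 23.2% of distal peaks without CACGTG, and the interval of that difference, -10.6 to -0.00460, only just left out 0. Against promoter E-box peaks (9.52%) it was higher by 7.89 points (2.45 to 13.9). For CACGCG (10.3% and 9.89%), CATGCG (7.14% and 8.66%), CAGCTG (11.6% and 10.4%) and the AP-1 site TGAGTCA (2.23% and 3.12%), differences between members and distal peaks without CACGTG had intervals that included 0. A match to these letters is not a shown site, and GC content of the windows differed slightly (median 45.8% in members, 43.8% in distal peaks without the E-box).

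The Mnt gene itself held 4 of the members, all in introns. They lay 2.14, 10.6, 23.8 and 25.1 kb from its first TSS with pooled signals of 599, 323, 493 and 193. In replicate 1 these were 423, 242, 320 and 130. In replicate 2 the first 3 were 179, 77.5 and 181, and the last had no region. The E-box peaks within 500 bp of a Mnt TSS had pooled signals of 468 and 180, so 2 of the distal ones were stronger than either. In all, 16 optimal peaks were assigned to Mnt, a gene of 29.9 kb, which put it at place 5, shared, among all genes by number of peaks. The strongest of the 16, with 858, had no E-box in its window. The summits at 2.14 and 2.34 kb share a region, so their replicate signals are the same values. The line carries a tagged Mnt, and whether it holds an additional copy of these sequences is not stated; the part of this in the signal over Mnt was not tested.

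Myc, the activator that Mnt opposes, had 3 members among 7 assigned optimal peaks. The strongest lay in intergenic sequence 2358 bp upstream of its TSS, with a pooled signal of 266 and signals of 169 and 93.6 in the replicates. Its E-box middle was 9.5 bp from the summit. The other members were in the second intron of Myc, with pooled signals of 83.5 and 96.6, near the lowest signal in the optimal list. The peak at the Myc start, with a pooled signal of 200, had no E-box in its window, and the strongest peak assigned to Myc (427, at -1.65 kb) had none either. Of the other 8 genes of the Myc network list (Max, Mondo, bigmax, Sin3A, HDAC1, rept, pont and Kdm5), none was assigned a distal E-box peak. Such a peak was assigned to only 1.36% of all protein-coding genes, so none among 8 is no result about the list. An optimal summit at their own start was found at all 10, against 38.1% of all protein-coding genes.

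**Figure D5:**
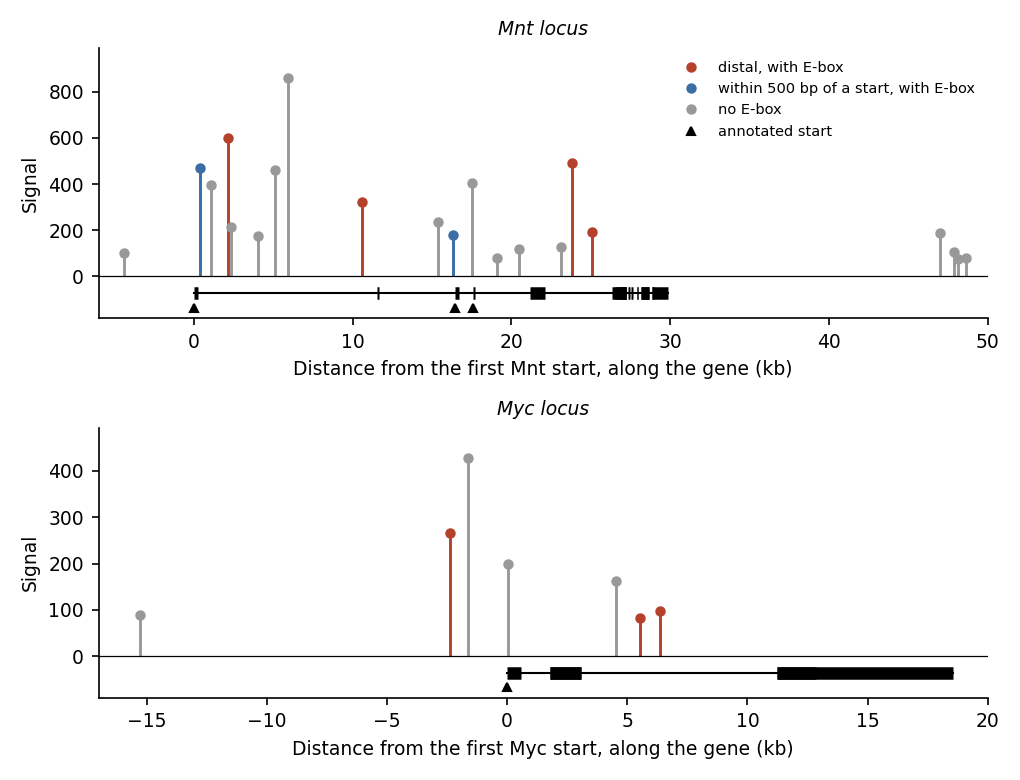
Pooled signal (vertical axis) of optimal peaks against distance in kb from the first TSS of Mnt (top) and Myc (bottom), along the direction of the gene; red marks distal E-box peaks, blue E-box peaks within 500 bp of a TSS and grey peaks without the E-box. Exons are black boxes and triangles annotated starts; the peaks between 47.0 and 48.6 kb in the upper panel belong to Rala and Tlk.

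Distal E-box peaks were spread over 189 genes, or 1.36% of the 13945 protein-coding genes. Of these, 162 had 1 member, 22 had 2 and 5 had at least 3, with all summits of a gene at least 400 bp apart. The 5 were Pdp1 with 5, Mnt with 4, and Glut4EF, Raf and Myc with 3 each. Pdp1, a PAR-domain activator of the circadian clock, had members spread over 32593 bp, all in introns, with pooled signals of 224, 224, 198, 108 and 98.2. Its replicate signals ran from 53.5 to 152 in replicate 1 and from 38.5 to 115 in replicate 2, so none was among the strongest. Raf had members of 657, 186 and 162, and Glut4EF of 678, 343 and 155. In both genes 1 member stood well above the others. These genes are long (Pdp1 55.9 kb, Raf 48.4 kb, Glut4EF 121 kb), and all 3 had 14 or more optimal peaks of any kind.

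Genes of 15 lists were counted, beside the 1.36% of all protein-coding genes with a distal E-box peak and the 7.65% with a distal peak that lacked the E-box. Of protein-coding genes of at least 14.1 kb, the median length of the members' genes, 6.59% and 28.2% had such peaks. The counts are small and serve as a description; differences between lists were not tested. Of 14 ecdysone response genes 4 had one: Eip74EF (663), ftz-f1 (424), Eip75B (262), a nuclear receptor, and EcR (148), the ecdysone receptor. A distal peak without the E-box was found at 7 of these 14. Of 12 clock genes 3 had one: vri (250), a bZIP repressor of the clock, Pdp1 (224) and sgg (94.0), the GSK3 kinase. A distal peak without the E-box was found at 5 of these 12. Insulin and TOR signalling had 2 of 19, InR and foxo (258), a transcription factor that insulin signalling restrains. The stress list had 2 of 14, srl (498) and cnc (150), the fly Nrf2 relative. The list of other helix-loop-helix factors had 1 of 11, which was crp. It was drawn up for factors that bind CACGTG, but whether crp or the others bind that site was not tested. Distal peaks without the E-box were found at 7 genes of the insulin list, 5 of the stress list and 5 of the helix-loop-helix list.

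The other lists had at most 2 genes with a distal E-box peak. Muscle had 1 of 14, Mef2, a muscle transcription factor (331), and midgut 1 of 11, GATAe, an endoderm GATA factor (120). Fat body lipid metabolism had 1 of 15, Hnf4, a nuclear receptor (181), and autophagy 1 of 16, Atg1, the kinase that starts autophagy (120). The list of homeobox and other patterning factors had 2 of 27, chinmo (286) and bun (105). Its homeobox genes lab, Dfd, Scr, Antp, Ubx, abd-A and Abd-B had no distal E-box peak. All 18 genes of the nucleolar and ribosome biogenesis list had an optimal summit at their own start, against 38.1% of all protein-coding genes. That list had 1 distal E-box peak, in bel, a DEAD-box helicase (177). Neuronal markers (15), ovary and germline markers (17) and growth and patterning signals (22) had none. In the same 3 lists, 1, 1 and 8 genes had a distal peak without the E-box. Such peaks were at 4 genes of the muscle list, 2 of the midgut, 6 of the fat body, 5 of the autophagy, 8 of the homeobox and 1 of the nucleolar list.

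Genes with a distal E-box peak mostly had Mnt-eGFP at their own start too. An optimal summit lay within 500 bp of their own TSS at 156 of the 189 genes (82.5%, 76.4 to 87.7), against 38.1% of all protein-coding genes. Among genes with a distal peak that lacked the E-box it was 76.6%, a difference of 5.97 points (-0.551 to 11.4). Counted over peaks, 190 of the 224 members (84.8%, 79.4 to 89.3) and 82.8% of distal peaks without the E-box had such a gene, a difference of 2.03 points (-3.51 to 6.50). Long genes were more often bound at a start: among protein-coding genes of at least the median length of the members' genes (14.1 kb), 46.6% had such a summit. The members' genes had a median of 2 starts each and all protein-coding genes a median of 1; what number and length add to the share was not tested further. Members whose gene had a summit at its start had a median signal of 150 (137 to 172), and the other 34 of 112 (89.1 to 140). Of the 189 genes, 114 also had a distal peak without the E-box (60.3%), against 7.65% of all protein-coding genes and 28.2% of those of at least 14.1 kb.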

How the data were processed

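The values are peak lists from Mnt-eGFP ChIP-seq of 2 biological replicates of 1 group. The deposited columns used were the signal and the −log10 q-value of each region; the latter stood at its cap of 4.22 at all 7451 optimal peaks, so the signal ranked them. The optimal list is thresholded by the irreproducible discovery rate, per the file names, and the replicate lists hold 30000 regions each, peaks with weak background. No source used here names the peak caller or aligner. Depth in reads is unknown, and the control libraries were not analysed here. Lists on the older dm3 build and the pooled list were not used.

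Summits on dm6 were compared with Ensembl release 115 genes and Release 6 sequence of 6 chromosome arms, without transposable elements, and are 1-based. A replicate region matched a peak when they overlapped by 1 bp or more, and the strongest such region gave the peak's replicate signal. An E-box counted when it lay wholly within 100 bp of the summit. The 9 other motifs were searched on both strands. Shares have 95% exact intervals, differences of shares Newcombe intervals and medians order-statistic intervals; no p-values were computed. Genes were named when assigned 1 of the 25 strongest members, when assigned 3 or more members at least 400 bp apart, or, from the 15 gene lists, when assigned a member (up to 4 per list, and the whole Myc network list). The members, lists and motifs were chosen with earlier results of these data known. Of the list symbols, CtsD, caud and argos matched no gene and 1 nucleolar symbol was entered again. The ovary list held Nos, which is a different gene from nos. The midgut and growth lists held dl, the gene also in the stress list, which is a different gene from Dl. Alternatives were other distances and windows, protein-coding TSSs only, stronger peaks only, merged summits and each replicate alone. The tools were scipy 1.17.1, pandas 2.3.3 and numpy 2.4.6 under Python 3.11.15, with matplotlib 3.10.9 for figures; motif placement and intervals were tested on simulated data.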

Additional observations from a re-analysis of the deposited data

How the results depend on the processing

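With a 50 bp window the rule found 147 regions, and among optimal peaks at or above their median signal 116; each replicate alone gave 199 to 247. The excess of E-boxes within 25 bp of the summit over promoter E-box peaks (7.50 points) had an interval above 0 under 3 settings: 11.5 with summits over 250 bp from a TSS, 9.29 with a 250 bp window and 9.04 when summits closer than 400 bp were reduced to the strongest. The ratio of median signals (1.22) had overlapping intervals at 1.25 beyond 1000 bp, 1.17 with a 50 bp window, 1.05 among stronger peaks and, in an alternative added after the data were seen, 1.03 with the replicate 1 signal; leaving out 1 replicate gave 1.14 to 1.21, with overlapping intervals at 1.14 (without replicate 2). Differences from other distal peaks that were within their intervals changed sign: introns at -0.0130 points with protein-coding TSSs only, -1.31 among stronger peaks and -0.683 to 2.38 with a replicate left out; presence among the strongest regions of both replicates at -0.426 with a 50 bp window; a bound start at -0.0181 beyond 1000 bp. With a 50 bp window, CACGCG reached -0.701 points, and with 250 bp CAGCTG was -0.242 and AP-1 0.770. The motif panel held 1 difference whose interval left out 0 (CATGTG), and 0 with 50 or 250 bp windows. Windows with at least 2 E-boxes were 2.04% at 50 bp, 6.98% at 250 bp and 2.43% to 4.02 with a replicate left out. Distal occupancy was 1.95% over 250 bp and 1.36% over 1000 bp from a TSS, 1.08% with a 50 bp limit, 2.30% with 250 bp, 0.861% for stronger peaks and 2.11% for sites inside a peak. Of 104 alternatives, 72 kept their direction and their side of the threshold, or for counts and untested values stayed close to the main value; sizes still moved among them, as the 7.50 points became 1.55 within 10 bp and 2.05 within 50 bp, and the GAGA difference of 2.83 became 0.0762 with a 50 bp window. The difference in occupancy of ACACGTGC (1.23 points) was 1.1 and 1.25 with each replicate alone, also an alternative added after the data were seen. The cause of the other changes was not tested beyond what each setting itself changes. No paired analysis was possible because there is only 1 group. With 2 replicates and whole animals, the lists show neither the spread between animals nor the cells bound.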
